A study of Oryza sativa with 4 samples.

Results

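The sites compared here are the genomic positions at which the rice bZIP proteins OsbZIP42 (labelled HBF1) and OsbZIP77 (labelled FD1) each gave a DAP-seq peak. DAP-seq, DNA affinity purification sequencing, exposes purified and fragmented genomic DNA to a tagged transcription factor and sequences what the factor retains. A pair was an OsbZIP77 peak and the nearest OsbZIP42 peak with centres at most 100 bp apart, each peak being used once. This gave 1980 pairs, out of 28323 OsbZIP42 peaks and 2059 OsbZIP77 peaks. The series holds 31683 peaks in 4 libraries: OsbZIP42, OsbZIP77, OsbZIP69 (labelled FD4) and a HALO-GST negative control. Each protein was made as a HALO fusion in a rabbit reticulocyte expression system and met DNA from leaves of the cultivar Nipponbare. There was 1 library per protein, so no value below has a replicate check and no difference between the proteins could be tested. The DNA had been extracted with phenol and chloroform, so it carried no chromatin, and the labels name no partner protein added to the bZIP fusions.

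bZIP proteins bind DNA as dimers: a basic region contacts the bases and a leucine zipper holds the partners together. Plant members typically recognise elements with an ACGT core. FD-type bZIPs are the DNA-binding component of florigen complexes, in which a 14-3-3 protein bridges the bZIP and florigen, the mobile protein that triggers flowering. OsbZIP77 (FD1) is the rice member known as the partner of the florigen Hd3a, while OsbZIP42 (HBF1) was named in rice as an Hd3a-binding factor that represses flowering.

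Nearly all OsbZIP77 sites lay at OsbZIP42 sites, but few OsbZIP42 sites carried an OsbZIP77 peak. Of the OsbZIP42 peaks, 6.99% were paired (1980 of 28323, exact 95% interval 6.70 to 7.29), and of the OsbZIP77 peaks, 96.2% (1980 of 2059, 95.2 to 97.0). Intervals here cover the counting of peaks alone. The strength of a peak is given as the authors' own signal value, which ranks peaks within a list but has no stated scaling between libraries. Paired OsbZIP42 peaks ran from 10.5 to 736 in signal with a median of 76.0, against a median of 23.0 for unpaired OsbZIP42 peaks. Paired OsbZIP77 peaks ran from 10 to 99 with a median of 22.0, against 13 for the 74 OsbZIP77 peaks with no OsbZIP42 centre within 100 bp. The pairs therefore leaned toward strong OsbZIP42 sites, while spanning nearly the whole signal range of both lists. The OsbZIP42 members had a median place at 9.49% of their list and the OsbZIP77 members at 49.9% of theirs, counted from the strongest.

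Within most pairs the centres were adjacent bases. The OsbZIP42 centre lay 1 bp to the right of the OsbZIP77 centre in 797 pairs and 1 bp to the left in 796. The centres coincided in only 5 pairs (0.253%, 0.0820 to 0.588). A further 57 pairs were 2 bp apart, so that 83.6% of pairs (81.9 to 85.2) lay within 2 bp. The step of 1 bp went with the OsbZIP42 list: paired in the same way, OsbZIP42 and OsbZIP69 were 1 bp apart in 866 of 1075 pairs and coincided in 0 (upper limit 0.279%, from 3 counts), whereas OsbZIP69 and OsbZIP77 coincided in 702 of 804. Another 276 pairs (13.9%, 12.4 to 15.5) had centres 11 to 100 bp apart. These wider pairs need not represent the same bound element, and they are marked as such below. At the edge of the window, 7 OsbZIP77 peaks were 81 to 100 bp from the nearest OsbZIP42 centre, with signals from 11 to 19. A further 3 were 101 to 120 bp away, with signals from 10.4 to 24.0. The window left 229 OsbZIP42 peaks unpaired although an OsbZIP77 centre lay within 100 bp. It also left 5 OsbZIP77 peaks whose nearest OsbZIP42 peak was taken by a closer one. One of these, at the strongest OsbZIP42 peak of all (chromosome 5, 2080919 to 2081119, signal 736), had an OsbZIP77 signal of 25.1.

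Several sites led the order of both proteins. The 6 pairs with the best lower rank all stood in the top 2% of the pairs for each protein. The first, on chromosome 9 (OsbZIP42 interval 17092453 to 17092653), had signals of 509 for OsbZIP42 and 87.0 for OsbZIP77. The second, on chromosome 12 (17464090 to 17464290), had 535 and 82.0 in that order, but its centres were 21 bp apart. The next pair of sites, on chromosome 5 (1923801 to 1924001) and chromosome 10 (22328280 to 22328480), had OsbZIP42 signals of 463 and 433 and OsbZIP77 signals of 70.0 and 80.0. The remaining sites lay on chromosome 3 (33137411 to 33137611), with 346 for OsbZIP42 and 65.0 for OsbZIP77, and on chromosome 5 (13708790 to 13708990), with 390 and 55.4. All 6 also had an OsbZIP69 centre within 100 bp. The coordinates are 1-based in the authors' build, which the sources used here do not name, so no gene or sequence is assigned to them.

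Over all pairs, stronger OsbZIP42 sites had stronger OsbZIP77 peaks, with wide scatter. When pairs were put in 10 classes by OsbZIP42 signal, the median OsbZIP77 signal was 29.0 in the highest class (OsbZIP42 signals of 193 to 736), 24.0 in the fifth (76.0 to 91.4) and 14.8 in the lowest (10.5 to 28.0). The class spreads overlapped: the middle 50% of OsbZIP77 signals ran from 23.0 to 37.8 in the highest class and from 20 to 30.0 in the fifth. Spearman's rho between the signals was 0.51 over the 1980 sites and Pearson's r of log2 signal was 0.52. These are descriptions across sites that share 2 libraries, not across replicates. By chromosome rho ran from 0.40 on chromosome 2 to 0.62 on chromosome 4. It was 0.52 over the 1655 pairs with centres within 2 bp and 0.53 over the 1502 pairs with no second centre of either protein within 300 bp. It was lower on splitting by OsbZIP69, at 0.35 over the 810 pairs with an OsbZIP69 centre within 100 bp and 0.46 over the 1170 without. Of the 100 strongest pairs of each protein 25 were in common, and of the 500 strongest, 223.

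**Figure D1:**
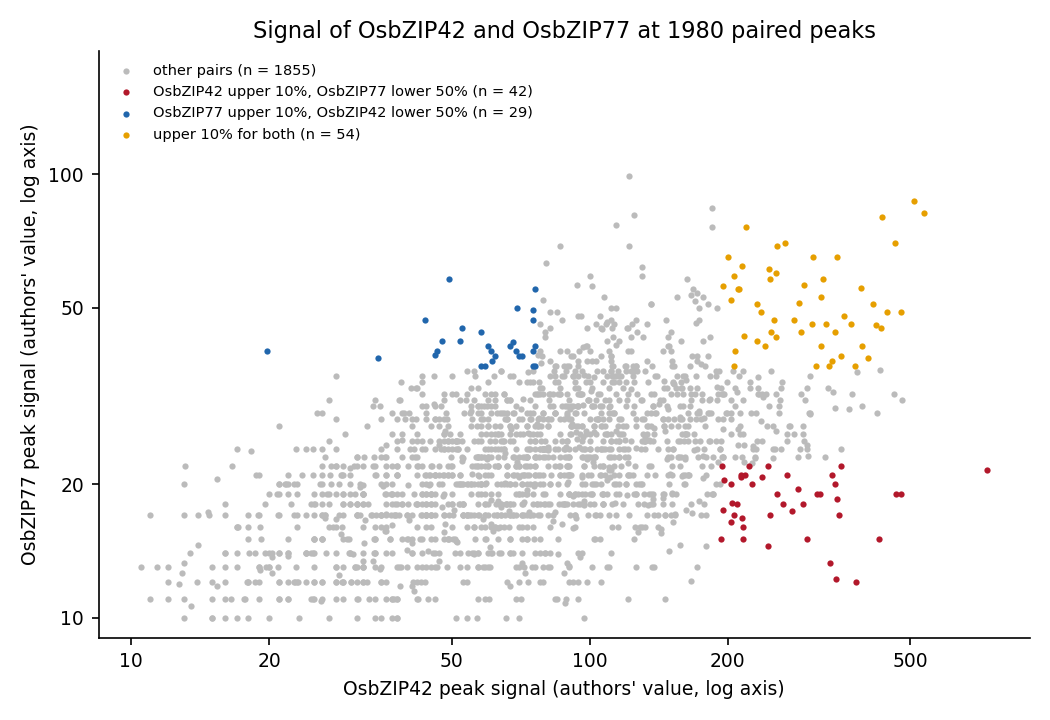
Signal of OsbZIP42 (horizontal log axis) and OsbZIP77 (vertical log axis) at each of the 1980 pairs, in the authors' unscaled values; each point is 1 pair and colours mark pairs in the upper 10% for both proteins (54) or in the upper 10% for one and the lower 50% for the other (42 and 29). The cloud rises to the right, and OsbZIP77 values stop at the lower end of that protein's list.

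To compare orders of equal length, both signals were ranked again among the pairs alone, with a percentile of 100 for the strongest. The rank shift is the OsbZIP42 percentile minus the OsbZIP77 percentile, so a positive shift marks a site that stood higher for OsbZIP42. By rank in the whole lists, 92.3% of pairs stood higher in the longer OsbZIP42 list, so the shifts are not taken from those ranks. The median absolute shift was 18.1 points. Shifts were within 10 points at 607 pairs (30.7%, 28.6 to 32.7). They exceeded 50 points toward OsbZIP42 at 107 pairs (5.40%, 4.45 to 6.49) and toward OsbZIP77 at 72 (3.64%, 2.86 to 4.56). Shifts over 75 points numbered 11 toward OsbZIP42 and 3 toward OsbZIP77.

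Some sites were high for OsbZIP42 and low for OsbZIP77. In the upper 10% of pairs for OsbZIP42 and the lower 50% for OsbZIP77 stood 42 pairs, or 2.12% of the 1980. These 42 came from the 198 pairs in the upper 10% for OsbZIP42. Their OsbZIP42 signals ran from 193 to 736 with a median of 252, and their OsbZIP77 signals from 12 to 22.0 with a median of 18.8. The largest shift, 93.8 points, was on chromosome 2 (18092541 to 18092741), where OsbZIP42 had 381 and OsbZIP77 12. That OsbZIP42 peak was in the top 0.0883% of its list, the OsbZIP77 peak stood at 93.8% of its own, and no OsbZIP69 peak was nearer than 130763 bp. A similar site on chromosome 5 (4281262 to 4281462) had 427 for OsbZIP42 and 15 for OsbZIP77, with an OsbZIP69 signal of 13. Both sites had centres 1 bp apart and no second OsbZIP42 centre within 1000 bp.

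The other 6 of the 8 largest shifts toward OsbZIP42 differed in the spacing of their centres, and the OsbZIP42 peaks of 166 and 146 among them were below the upper 10% of pairs, so those sites are outside the class of 42. On chromosome 4 (4649307 to 4649507), with centres 1 bp apart, OsbZIP42 had 166 and OsbZIP77 12.1. The centres were 15 bp apart on chromosome 1 (37704797 to 37704997), with 344 and 12.2, and on chromosome 6 (28108777 to 28108977), with 146 and 11. At the chromosome 1 site a second OsbZIP77 peak of 16.8 lay 73 bp from the first. The centres were 37 to 88 bp apart at the other 3 sites, on chromosome 5 (23735055 to 23735255 and 16152241 to 16152441) and chromosome 12 (25041138 to 25041338). There OsbZIP42 had 334, 244 and 297, and OsbZIP77 13.3, 14.5 and 15. Over the whole class of 42, 19 pairs had centres more than 10 bp apart (45.2%, 29.8 to 61.3), against 276 of 1980 pairs in all (13.9%) and 62 of the 198 pairs in the upper 10% for OsbZIP42 (31.3%). The other 23 had centres within 10 bp. A second OsbZIP77 centre lay within 300 bp at 10 of the 42 (23.8%, 12.1 to 39.5), against 23 of those 198 pairs (11.6%) and 57 of all 1980 (2.88%). A stronger OsbZIP77 peak lay within 100 bp at 2 of the 42, against 13 of all pairs. What part the spacing of the centres or a second OsbZIP77 peak has in the low OsbZIP77 values was not tested.

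Fewer sites were high for OsbZIP77 and low for OsbZIP42: 29 pairs, or 1.46% of the 1980, met the mirrored limits. These 29 came from the 205 pairs in the upper 10% for OsbZIP77. Their OsbZIP42 signals ran from 19.8 to 76.0 with a median of 61.1, and their OsbZIP77 signals from 37.0 to 58.0 with a median of 40.0. None had centres more than 10 bp apart (0 of 29, upper limit 10.3%). The OsbZIP42 values, though low among the pairs, were mostly not low in the full OsbZIP42 list, where these peaks had a median place of 13.5%. In the lower 50% of the whole OsbZIP42 list, 1 of the 205 pairs in the upper 10% for OsbZIP77 was found.

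That single case, with the largest shift toward OsbZIP77 (-89.2 points), was a crowded site. On chromosome 3 (33169681 to 33169881) the paired OsbZIP42 peak had 19.8 and the OsbZIP77 peak 40.0, but another OsbZIP42 peak 36 bp from the paired one had a signal of 278. The same held on chromosome 4 (34205702 to 34205902), where OsbZIP42 had 49.4 and OsbZIP77 58.0, with an OsbZIP42 peak of 330 within 100 bp. It held also on chromosome 6 (5613843 to 5614043), where OsbZIP42 had 46.5 and OsbZIP77 40.0, beside an OsbZIP42 peak of 129. The other 5 of the 8 largest shifts toward OsbZIP77 had no stronger OsbZIP42 peak within 100 bp. The OsbZIP77 peaks of 35.0 and 31.0 among them were below the upper 10% of pairs, so those sites are outside the class of 29. The 5 sites lay on chromosome 2 (23915791 to 23915991), with 28.0 for OsbZIP42 and 35.0 for OsbZIP77, and on chromosome 12 (4466280 to 4466480), with 34.5 and 38.6. The last 3 were on chromosome 3 (11521721 to 11521921), with 43.7 and 47.0, on chromosome 10 (11546185 to 11546385), with 27.0 and 31.0, and on chromosome 12 (25015926 to 25016126), with 47.6 and 42. In the class of 29, 4 pairs had a stronger OsbZIP42 peak within 100 bp (13.8%, 3.89 to 31.7), against 120 of all 1980 pairs (6.06%). Taking the highest signal of each protein within 100 bp in place of that of the paired peak gave 42 and 31 pairs in these classes and a rho of 0.53.

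**Figure D2:**
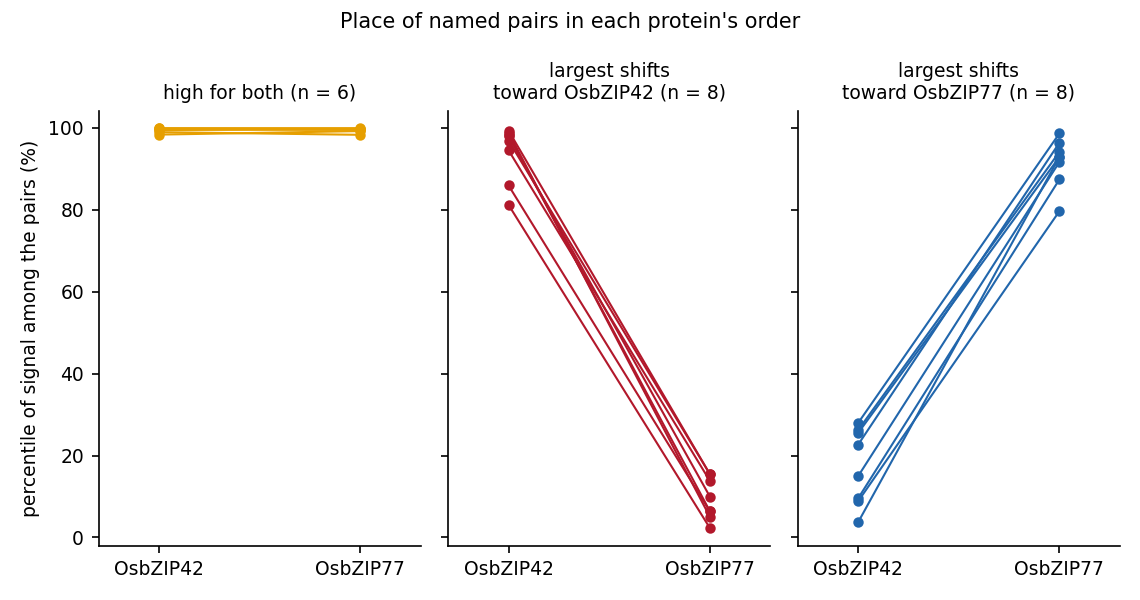
Percentile of signal among the 1980 pairs (vertical axis, 100 the strongest) for OsbZIP42 on the left and OsbZIP77 on the right of each panel; each line is 1 named pair. The 6 leading sites stay at the top, the 8 largest shifts toward OsbZIP42 drop below the 20th percentile for OsbZIP77, and the 8 toward OsbZIP77 lie below the 30th for OsbZIP42.

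OsbZIP69, which the pairing did not use, had a centre within 100 bp at 810 of the 1980 pairs, or 40.9%, against 4.33% of all OsbZIP42 peaks and 417 of the 26343 unpaired ones (1.58%, 1.44 to 1.74). Its presence differed among the classes of pairs. It was found at 53 of the 54 pairs in the upper 10% for both proteins (98.1%, 90.1 to 100), at 25 of the 42 high for OsbZIP42 and low for OsbZIP77 (59.5%, 43.3 to 74.4) and at 23 of the 29 high for OsbZIP77 and low for OsbZIP42 (79.3%, 60.3 to 92.0). The intervals of the last 2 classes overlap. Both shares were below those of all strong pairs of the same protein, 146 of the 198 pairs in the upper 10% for OsbZIP42 (73.7%, 67.0 to 79.7) and 185 of the 205 in the upper 10% for OsbZIP77 (90.2%, 85.3 to 93.9), and above the 40.9% of all pairs. Among pairs with no second centre of either protein within 300 bp, ranked anew, OsbZIP69 was found at 9 of 31 OsbZIP42-high pairs (29.0%) and at 15 of 20 OsbZIP77-high pairs. The OsbZIP69 share over all 1502 such pairs was not counted, so these counts have no matching base. Where present, the OsbZIP69 peak had a median place of 58.5% of its list at OsbZIP42-high pairs, 18.0% at OsbZIP77-high pairs and 9.62% at pairs high for both. Among all pairs ordered by shift, OsbZIP69 was found at 35.4% (28.7 to 42.4) of the 198 furthest toward OsbZIP42 and at 49.0% (41.8 to 56.2) of the 198 furthest toward OsbZIP77. Pairs with OsbZIP69 were stronger for both proteins, with medians of 103 for OsbZIP42 and 28.0 for OsbZIP77, against 60.7 and 19 in pairs without it. HALO-GST, the negative control, had a peak centre within 1000 bp at 2 pairs, neither of them in the classes of 54, 42 and 29. Of the 205 pairs in the upper 10% for OsbZIP77, 1 had such a HALO-GST centre.

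**Figure D3:**
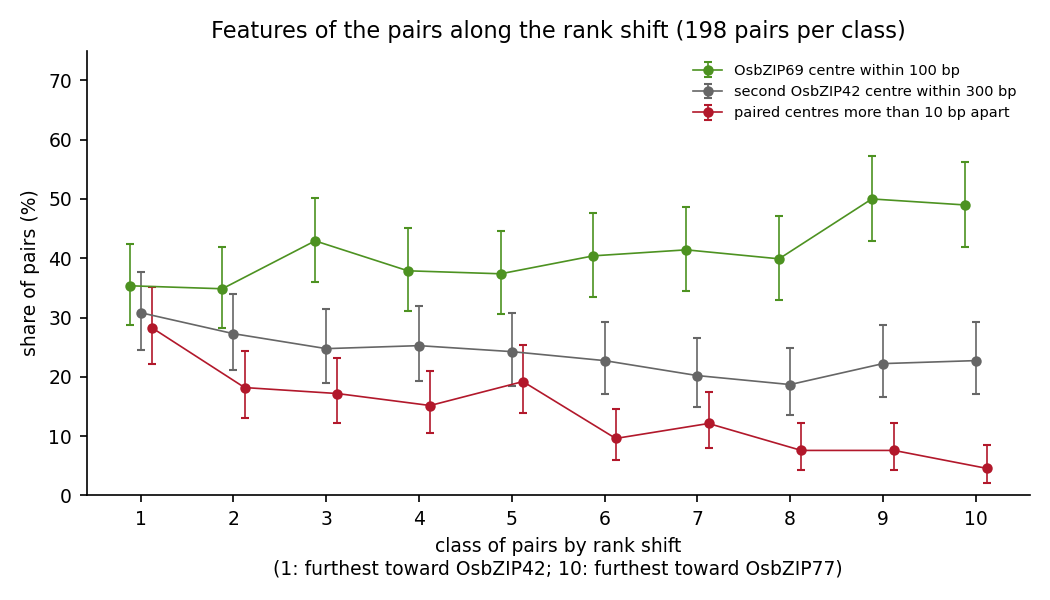
Share of pairs (vertical axis, %; bars are exact 95% intervals) with each of 3 features, in 10 classes of 198 pairs ordered by rank shift from OsbZIP42-high (left) to OsbZIP77-high (right). Pairs with centres more than 10 bp apart make up 28.3% of the leftmost class and 4.55% of the rightmost, and pairs with OsbZIP69 35.4% and 49.0%.

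The share of OsbZIP42 sites with an OsbZIP77 peak fell steeply with OsbZIP42 signal. All of the 10 strongest OsbZIP42 peaks were paired, as were 72 of the 100 strongest (72.0%, 62.1 to 80.5) and 483 of the 1000 strongest (48.3%, 45.2 to 51.4). Between ranks 201 and 500, with signals from 229 down to 166, the share was 49.3% (43.5 to 55.1). Between ranks 1001 and 2000 it was 34.3% (31.4 to 37.3), and between ranks 2001 and 5000, 18.9% (17.5 to 20.3). Beyond rank 5000 it was 2.52% (2.32 to 2.73), yet those 23323 peaks supplied 588 of the 1980 pairs. In 20 classes of the list, the share was 44.6% in the strongest, 28.2% in the second, 8.52% in the fifth, 1.36% in class 12 and 0.501% (0.202 to 1.03) in the last. From the strongest class on, the share declined through 15 classes in turn, with intervals that overlapped between neighbouring classes from the fourth on.

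**Figure D4:**
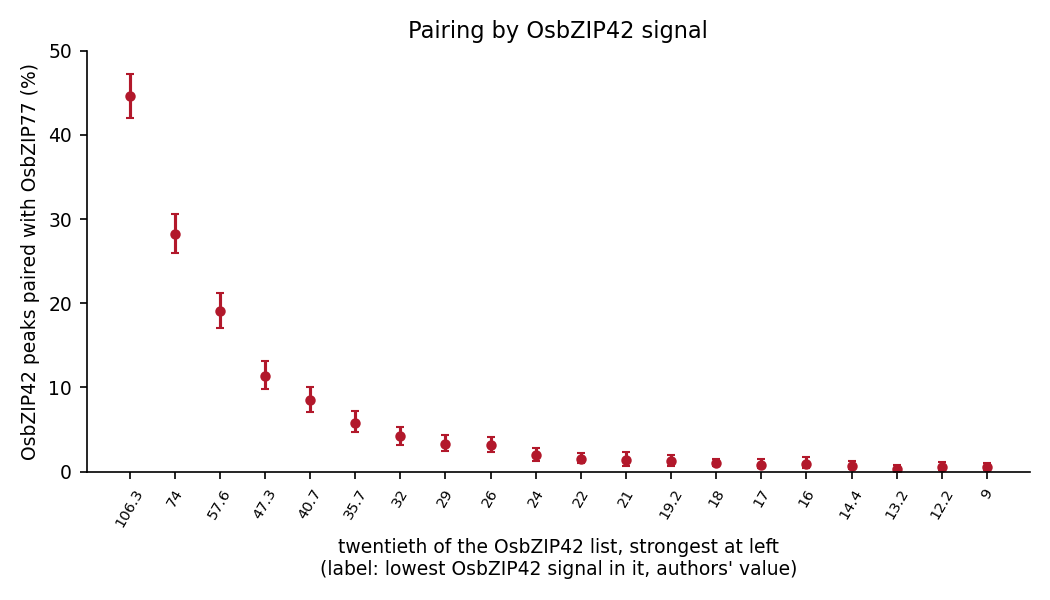
Share of OsbZIP42 peaks paired with an OsbZIP77 peak (vertical axis, %) in 20 classes of the OsbZIP42 list from strongest (left) to weakest, each labelled with its lowest OsbZIP42 signal; bars are exact 95% intervals. The share is 44.6% where signals exceed 106 and under 2% below a signal of 26.

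The weakest peak of the OsbZIP77 list had a signal of 9.50, and the median OsbZIP77 signal of the paired peaks was 27.0 in the strongest of the 20 OsbZIP42 classes, 19 in the fifth and 13 in the last. Pairs from weak OsbZIP42 sites thus came close to the limit of what the OsbZIP77 list contains, and binding below that limit was not detectable in these files. The weakest OsbZIP42 peak in a pair, on chromosome 12 (568113 to 568313), had a signal of 10.5, with 13 for OsbZIP77 at 1 bp. Seen from OsbZIP77, pairing stayed near complete: it was 99.8% in the strongest 5th of that list (422 of 423), 98.9% in the middle one and 85.5% (81.7 to 88.8) in the weakest, where signals ran from 9.50 to 15.9.

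Some strong OsbZIP42 sites had no OsbZIP77 peak. The 6 strongest without an OsbZIP77 centre within 100 bp had signals from 347 to 369 and ranked between 31 and 42 in the list. They lay on chromosome 4 (6925865 to 6926065), chromosome 12 (24239824 to 24240024), chromosome 7 (5951148 to 5951348), chromosome 1 (3373993 to 3374193 and 614487 to 614687) and chromosome 10 (22146725 to 22146925). The nearest other OsbZIP42 centre lay 110 bp from the chromosome 10 site and 337 to 893 bp from the others. Of these 6, the chromosome 10 site alone thus had a second OsbZIP42 centre within 300 bp. Such a neighbour was found at 84 of the 198 pairs in the upper 10% for OsbZIP42 (42.4%) and at 4790 of all 28323 OsbZIP42 peaks. With 6 named sites, no difference was tested. The nearest OsbZIP77 peak was 454026 bp away from the first and 4469 bp from the last. OsbZIP69 had a peak at only the chromosome 7 site, 43 bp from the OsbZIP42 centre. In the other direction the unpaired peaks were weak. Beyond the strongest, on chromosome 1 (39111644 to 39111844, signal 47.0), which lay 48 bp from a HALO-GST centre, the next OsbZIP77 peaks without OsbZIP42 had signals of 30.0 on chromosome 5 (7431631 to 7431831) and 24.0 on chromosome 2 (21485318 to 21485518). The chromosome 2 peak was 112 bp from an OsbZIP42 centre, just outside the window.

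Along the genome, pairing was spread over all 12 chromosomes with moderate differences between them. From 5.63% (4.58 to 6.83) of OsbZIP42 peaks on chromosome 9 and 5.72% (4.84 to 6.71) on chromosome 4, the paired share ran up to 8.01% (6.82 to 9.35) on chromosome 11 and 8.41% (7.13 to 9.83) on chromosome 12. To allow for signal, the number of pairs was compared with the number given by the genome-wide pairing share in 50 classes of OsbZIP42 signal. Observed pairs were 0.846 times that number on chromosome 3, 0.849 times on chromosome 4 and 0.852 times on chromosome 9, and 1.14 times on chromosomes 11 and 12. The median OsbZIP42 signal differed little between chromosomes, from 23.0 to 25. The OsbZIP77 peaks were paired at 94.0% to 98.0% on every chromosome.

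The paired share of OsbZIP42 peaks also varied along the chromosomes. With each chromosome cut into 10 equal stretches, the paired share was 7.70% and 8.41% in the first 2 and 8.35% and 8.07% in the last 2, and between 5.28% and 6.50% in the 6 stretches between. By distance from the nearer end, it was 7.15% (6.03 to 8.40) at 0 to 1 Mb, 8.19% (7.05 to 9.45) at 1 to 2 Mb, 8.51% (7.83 to 9.23) at 2 to 5 Mb, 6.66% (6.16 to 7.18) at 5 to 10 Mb, 6.04% (5.47 to 6.65) at 10 to 15 Mb and 5.71% (4.78 to 6.75) beyond 15 Mb. Given OsbZIP42 signal, observed pairs were 1.06, 0.990, 1.07, 1.01, 0.948 and 0.852 times the expected number at these distances in turn, so that the 4 classes nearest the ends showed no steady order and the ratio was lowest beyond 15 Mb. Among the 10 stretches it was between 0.889 and 0.972 in the 6 interior ones, 1.05 and 1.15 in the first 2 and 1.05 and 1.02 in the last 2. In windows of 5 Mb with at least 100 OsbZIP42 peaks, the ratio ran from 0.503 on chromosome 3 (15000001 to 20000000, 10 pairs at 267 OsbZIP42 peaks) and 0.531 on chromosome 6 (10000001 to 15000000, 12 at 306) to 1.51 on chromosome 11 (20000001 to 25000000, 41 at 367). The 95% interval of the paired share left out the expected share in 5 of the 77 windows, 3 above it and 2 below. That count is close to what 95% intervals leave out by counting error alone. The windows named are thus the extremes of 77 and are not established as regional differences.

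Median rank shifts by chromosome were between -5.30 points on chromosome 2 and 1.69 on chromosome 7. By distance from the nearer chromosome end, the median shift was -7.47 points at 0 to 1 Mb (135 pairs), 0.13 at 2 to 5 Mb (525 pairs) and 4.82 beyond 15 Mb (127 pairs), with values from -1.94 to -0.95 in the other 3 distance classes. The 127 pairs beyond 15 Mb included 4 OsbZIP42-high and 0 OsbZIP77-high pairs, classes that made up 2.12% and 1.46% of all 1980 pairs. The classes are cut from the same ranks as the shift, and counts so small do not set these pairs apart. In the first of the 10 equal stretches the median shift was -6.19 points, and from -2.61 to 2.50 in the other 9. These medians carry no test. The 42 OsbZIP42-high pairs lay on 10 chromosomes, with 0 on chromosomes 3 and 10. Chromosome 5, with the highest count, held 11 of them (26.2%, 13.9 to 42) and 188 of the 1980 pairs. It also held 10 of the 54 pairs in the upper 10% for both proteins (18.5%). The 29 OsbZIP77-high pairs lay on 11 chromosomes, with 0 on chromosome 2. Chromosome 6 held 6 of them (20.7%, 7.99 to 39.7) and 165 of the 1980 pairs. OsbZIP42 peaks with a neighbour of the same list within 300 bp were paired at 9.87% (9.04 to 10.8) and isolated ones at 6.40%. For the crowded peaks observed pairs were 0.988 times the number given their signal. The use of each peak only once lowers the crowded share. The 229 OsbZIP42 peaks left unpaired with an OsbZIP77 centre within 100 bp are crowded and count as not paired. The ratio therefore cannot show whether crowded and isolated sites differ.

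**Figure D5:**
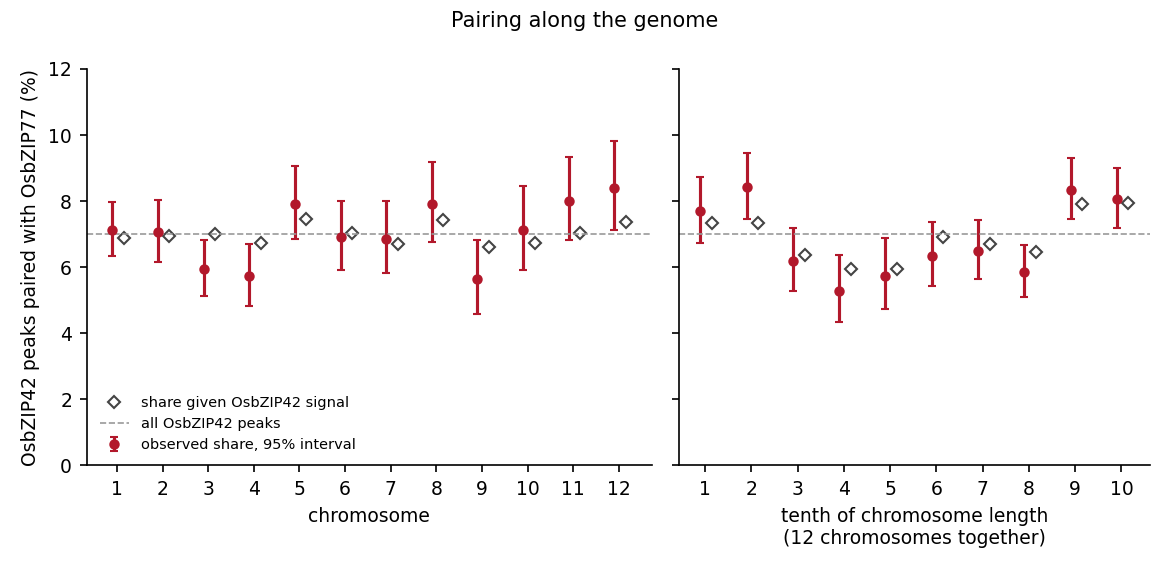
Share of OsbZIP42 peaks paired with OsbZIP77 (vertical axis, %) by chromosome (left) and by equal stretches of chromosome length, all chromosomes together (right). Filled points are observed shares with exact 95% intervals, open diamonds the shares given OsbZIP42 signal and the dashed line the share over all OsbZIP42 peaks, 6.99%. Chromosomes 3, 4 and 9 lie below their diamonds and 11 and 12 above, with the diamond outside the interval on chromosomes 3 and 4 only.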

How the data were processed

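DAP-seq peak lists of 4 libraries, 1 per protein, were used as deposited. Per the submitters' processing notes, Bowtie2 2.2.8 made the alignments. The deposited file names record that GEM called the peaks, for the bZIP proteins against a negative control. Not given in the sources used here are the genome build, read depth and unit of the signal. The deposited signal value per peak, the authors' own, ranked peaks within a list. The deposited −log10 q-value (lowest 2.00 in each list) served for alternatives only, and the authors' deposited peak score was not used. The deposited signal was a whole number for 77.7% of OsbZIP42 peaks with no neighbour within 500 bp and for 16.1% of those with one, so values at crowded sites are of another form.

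A centre was the 1-based start plus the deposited peak offset. Each OsbZIP77 peak took the nearest OsbZIP42 centre within 100 bp, and an OsbZIP42 peak claimed repeatedly went to the closest. Ties in rank were averaged. Shares carry exact (Clopper-Pearson) 95% intervals, which cover counting error only, and a share of 0 the limit of 3 counts. High and low mean the upper 10% and lower 50% of the pairs. Sites were named by rule: the 6 pairs with the best lower rank, the 8 largest shifts each way, the 6 strongest unpaired peaks of each protein (3 are printed for OsbZIP77) and the weakest paired OsbZIP42 peak. The pairs, limits and rules were chosen with earlier results of these data known. Pairing was tested on simulated lists whose OsbZIP42 peaks lay far apart, so the choice among crowded OsbZIP42 peaks was not tested. Python 3.11.15, pandas 2.3.3 and scipy 1.17.1 were used. Genes and sequences are not reported, since a genome of the authors' build was not used here.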

Additional observations from a re-analysis of the deposited data

How the results depend on the processing

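Of 95 alternatives to 12 results, 72 stayed within the interval of the main value (shares), within 0.05 (rho) or within 1.5 times (counts). A reversal was defined only for the sign of rho, where 0 occurred, and was not checked for shares or counts. Of the 95, 58 were planned and 37 were added after seeing the data. Some settings could hardly differ from the main one. Allowing the next nearest peak returned the main value of all 12 results. Leaving out peaks near HALO-GST kept 28284 of 28323 OsbZIP42 peaks and 2056 of 2059 OsbZIP77 peaks. These settings say little on stability. Restricting each list to its upper 50% by q-value left 1006 pairs, with a rho of 0.41, 26 OsbZIP42-high and 17 OsbZIP77-high pairs, OsbZIP69 at 42.3% and 52.9% of them, 97.8% of OsbZIP77 peaks paired, 20 OsbZIP77 peaks without OsbZIP42 and 29.8% pairing in the top 10% of OsbZIP42 peaks (36.4% in the main list). A window of 50 bp paired 94.1% of OsbZIP77 peaks, left 119 without OsbZIP42 (74 at 100 bp) and put 85.4% of pairs within 2 bp. Ranking by q-value gave a rho of 0.39 and OsbZIP69 at 40.7% of OsbZIP42-high pairs. With an upper limit of 5%, the classes held 21 and 7 pairs, the 7 all with OsbZIP69 (100%), and with 20%, 97 and 67. Ranks in the whole lists gave 293 OsbZIP42-high pairs, 33.8% of them with OsbZIP69, and 1 OsbZIP77-high pair, 0% with OsbZIP69; the pairs had a median place at 9.49% of the OsbZIP42 list and 49.9% of the OsbZIP77 list. Isolated pairs alone gave OsbZIP69 at 29.0% of the OsbZIP42-high class, below its main value of 59.5%. The OsbZIP69 share over all isolated pairs was not counted, and the cause was not tested. The lowest and highest paired shares per chromosome kept within their intervals, at 5.92% on chromosome 3 and 7.96% on chromosome 12 after allowing for OsbZIP42 signal, although the lowest moved from chromosome 9. No paired analysis was possible because there was a single library of each protein, and no library could be left out. Depth is unknown, which limits any statement on sites absent from the OsbZIP77 list.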
